A study of Mus musculus with 5 samples.

Results

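Genes for deubiquitinases and for ubiquitin-conjugating enzymes were followed in lipopolysaccharide (LPS)-stimulated macrophages cultured with or without Semaphorin 3G (Sema3G). Within these families the genes were taken by symbol, as the rows beginning with Usp and a digit, with Otud, or with Ube2, leaving out Usp18, and they came to 100 of the 24419 rows of the table. Of these, 63 were deubiquitinase rows (55 Usp and 8 Otud) and 37 were Ube2 rows. Bone marrow cells of C57BL/6 mice were grown for 5 days with 50 ng/ml macrophage colony-stimulating factor to give bone marrow-derived macrophages (BMMs), and all cultures then received 100 ng/ml LPS, a bacterial product that activates Toll-like receptor signaling. The 2 PBS libraries came from LPS-stimulated BMMs given PBS for 18 h, and the 3 Sema3G libraries from LPS-stimulated BMMs given 100 ng/ml recombinant Sema3G for the same time. Sema3G is a secreted guidance protein that binds neuropilin-2, and the recombinant protein carried an Fc tag and was made in 293T cells. Both groups carry LPS, so a change here is one on top of LPS. The labels do not say whether replicates were separate cultures or mice, so p-values measure the spread between these libraries, which may be technical.

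Ubiquitin is attached to proteins in a cascade in which an E1 enzyme activates it, an E2 enzyme of the Ube2 family carries it, and an E3 ligase directs it to a substrate. Deubiquitinases of the Usp and Otud families take it off again. In macrophages, some ubiquitin chains relay or restrain Toll-like receptor and NF-kB signaling, and others send proteins to the proteasome. A few symbols cover other activities. Usp6nl encodes a GTPase-activating protein for Rab proteins, Ube2v1 and Ube2v2 encode E2 variants without an active-site cysteine, and Ube2m and Ube2f carry NEDD8.

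Levels are in CPM, unique molecular identifier (UMI) counts scaled to the UMI total of each library, from sequencing of transcript 3′ ends, where the count of a gene does not grow with transcript length by design. The libraries held 1798469 to 2215855 UMIs, so that 3 counts, the limit that a count of 0 allows, correspond to 1.35 to 1.67 CPM. Rn45s, the gene of the ribosomal RNA precursor, accounted for 1.01% and 3.19% of UMIs in the PBS libraries and for 6.31%, 7.40% and 7.88% in the Sema3G libraries. UMIs on listed genes made up 75.6% and 77.6% of the PBS libraries and 65.9% to 71.3% of the Sema3G libraries. The part of these shifts in the results was not tested beyond the rescaled values given below. Sema3G replicates 2 and 3 were the closest pair, with a chi-square of 1.77 per degree of freedom over genes, against 6.57 to 29.6 for the other pairs. All 8 macrophage markers were present, with a summed level of 9761 to 12570 CPM with PBS and 8860 to 9518 CPM with Sema3G, and none passed the test. Of the markers of other cells, 11 were at 0 in every library, among them Cd3e, Cd8a, Ms4a1, Cd79a, Elane, Flt3 and Siglech. Neutrophil markers (4 of 5 detected) summed to 116 and 169 CPM with PBS and 103 to 133 CPM with Sema3G, nearly all of it S100a8. T cell markers (2 of 4) summed to 4.28 and 9.89 CPM with PBS and 2.30 to 8.90 CPM with Sema3G, mostly Cd4. B cell markers (1 of 4, Cd79b) stood at 2.68 and 2.75 CPM with PBS and at 0 to 0.56 CPM with Sema3G, lower in all Sema3G libraries. Stromal markers (4 of 4, mainly Col1a1, Col1a2 and Dcn) summed to 6.96 and 18.7 CPM with PBS and 9.03 to 14.3 CPM with Sema3G, and dendritic and mast cell markers reached at most 0.56 CPM. None of the tested ones passed, and their part in the results was not tested.

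The deubiquitinase genes lay in both directions, whereas most Ube2 genes lay lower with Sema3G. Of the 63 deubiquitinase rows, 14 had no UMI in any library, 1 (Usp13, with 2 UMIs in Sema3G replicate 1) was under a mean of 1 CPM, and 48 were tested. Those without a UMI were Otud6a, Otud7a, the Usp17l genes, Usp26, Usp29, Usp43, Usp44, Usp50, Usp51 and Usp9y. Of the 37 Ube2 rows, 6 had no UMI (Ube2d2b, Ube2dnl1, Ube2dnl2, Ube2ql1, Ube2u and Ube2v1), 3 (Ube2cbp, Ube2s and Ube2t) were under the filter, and 28 were tested. Fold changes are differences of mean log2(CPM + 1), Sema3G minus PBS, which understate the change of low genes, and were tested with limma over 10088 genes with Benjamini-Hochberg adjustment. The median over all tested genes was −0.22 as deposited, −0.036 with trimmed mean of M-values (TMM) scaling, and 0.042 with CPM recomputed on listed genes less Rn45s. The median of the deubiquitinase genes was −0.093, with quartiles at −0.38 and 0.33 and a range from −0.99 to 2.62. It was 0.11 and 0.19 with the other scalings. The median of the Ube2 genes was −0.40, with quartiles at −0.52 and −0.080 and a range from −1.02 to 0.77, and it was −0.20 and −0.12 with the other scalings. Set against all tested genes, the deubiquitinase median was 0.13 higher and the Ube2 median lower, a difference of −0.18. Split by family, the median of the 42 tested Usp genes was 0.16 higher, while that of the 6 tested Otud genes differed by only −0.00043. Without PBS replicate 1 the deubiquitinase median differed from that of all genes by only 0.0064, while that of the Ube2 median was −0.20. The number of genes below the all-gene median was 20 of 48 for deubiquitinases (41.7%) and 20 of 28 for Ube2 genes (71.4%).

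At an adjusted p below 0.05, 2 deubiquitinase genes were higher with Sema3G (4.17% of those tested, against 1.59% of all tested genes) and 0 were lower, against 0.218% of all tested genes. Of all tested genes, 160 were higher and 22 lower, and with TMM scaling 325 and 3. No Ube2 gene passed limma, edgeR's quasi-likelihood test or DESeq2 in either direction with all 5 libraries and no block. At an unadjusted p below 0.05 in the limma fit, 9 of 48 deubiquitinase genes and 1 of 28 Ube2 genes were higher, against 6.83% of all tested genes, and 2 and 8 were lower, against 14.2%. The 3 Sema3G libraries all lay above both PBS libraries for 13 deubiquitinase genes (27.1%) and 2 Ube2 genes (7.14%), against 11.9% of all tested genes. They all lay below both PBS libraries for 11 deubiquitinase genes (22.9%) and 16 Ube2 genes (57.1%), against 26.5%. The 13 deubiquitinase genes lying above were 13 Usp and 0 Otud genes, and the 11 lying below were 8 Usp and 3 Otud genes. With TMM scaling the counts above were 15 and 3 (17.4% of all genes) and those below were 2 and 11 (15.6%). With CPM recomputed on listed genes less Rn45s they were 16 and 4 above (21.3%) and 2 and 5 below (10.5%). Under the 3 scalings the share of deubiquitinase genes lying above was 27.1%, 31.25% and 33.3%. That of Ube2 genes lying below was 57.1%, 39.3% and 17.9%. Each was larger than that of all genes under the same scaling, and the last rests on 5 genes. Members were chosen with earlier results of these data known. As deposited, the 13 above include Usp53 and the 16 below include Ube2e2. These passed the filter only through the group where they are high, so they give the counts no support. The 11 deubiquitinase genes lying below were near the share of all genes and numbered 2 under each of the other scalings.

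**Figure D1:**
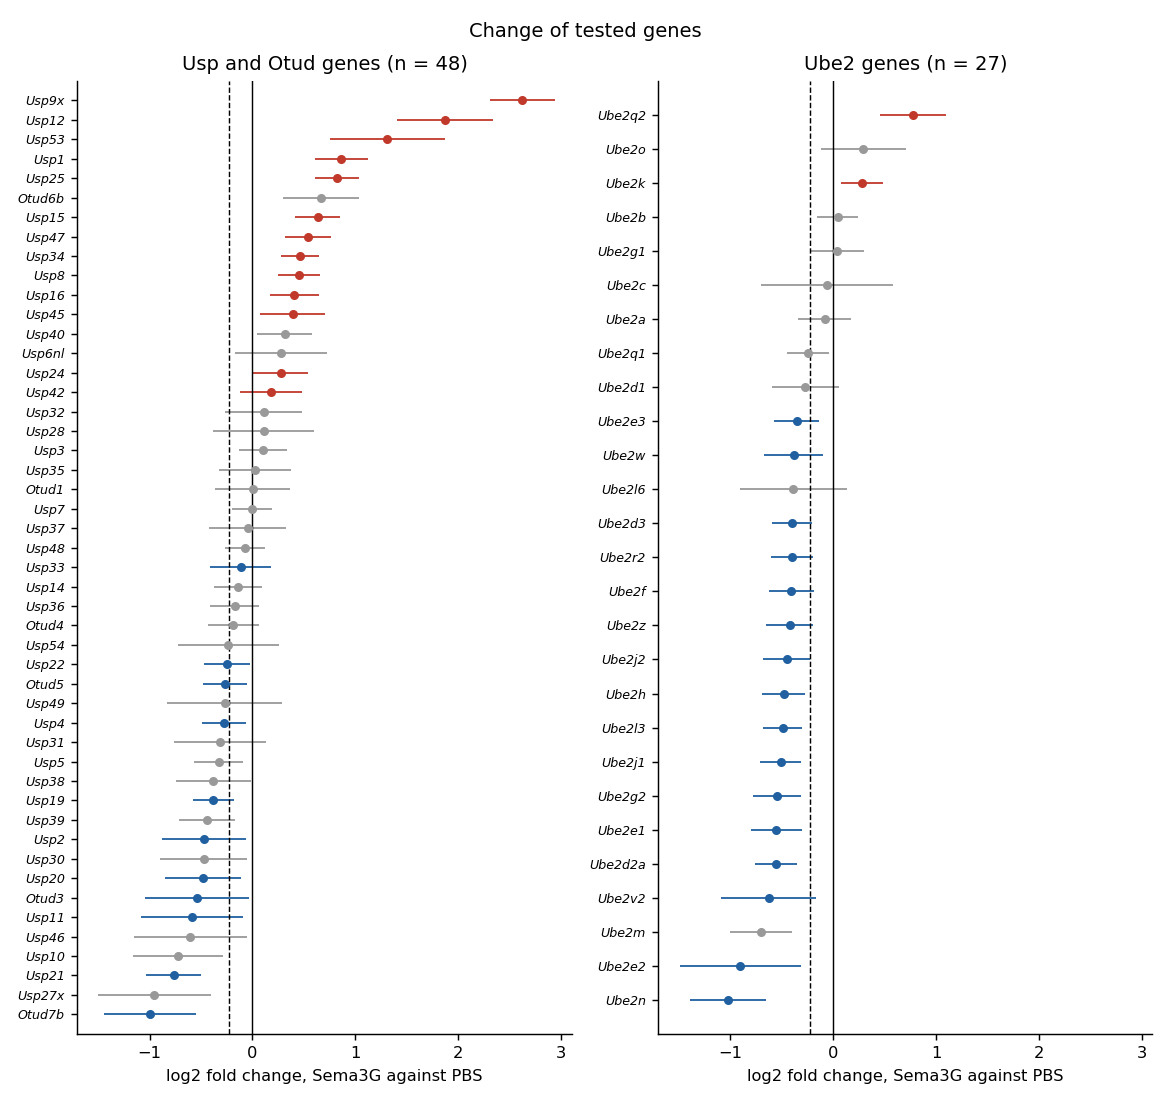
Log2 fold change of tested genes (x axis, Sema3G against PBS on log2(CPM + 1), point with standard error bar) for 48 Usp and Otud genes (left) and 27 of the 28 tested Ube2 genes (right). Red marks genes with all 3 Sema3G libraries above both PBS libraries, blue genes with all 3 below, gray the rest, and the dashed line is the median of all tested genes (−0.22). Usp9x lies farthest right at 2.62, and there are 13 red points on the left against 2 on the right, and 11 blue points against 16, where 11.9% of all tested genes would be red and 26.5% blue. With TMM scaling or CPM on listed genes less Rn45s the 11 become 2.

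Usp9x had the largest change of both classes. It encodes a large X-linked deubiquitinase known for stabilizing proteins such as MCL1, and lies on chromosome X from 13071498 to 13173328 on the plus strand (GRCm38, GENCODE M21). Its level was 3.85 and 2.68 CPM in the PBS libraries and 22.8, 27.1 and 25.4 CPM in the Sema3G libraries. All Sema3G libraries lay far above both PBS libraries, and the replicates of each group were close together. The mean rose from 3.26 ± 0.83 CPM (SD, n = 2) to 25.1 ± 2.15 CPM (SD, n = 3), a log2 fold change of 2.62 (SE 0.32, limma adjusted p = 0.000185). It ranked 10 among all tested genes by size of increase and passed in all 15 alternative analyses, at adjusted p-values up to 0.00196. The PBS level rests on 12 UMIs against 156 with Sema3G, and the ratio of summed, depth-scaled UMIs was 7.75 with an exact 95% binomial interval of 4.31 to 15.3, which covers counting error only.

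Usp12, whose product works in a complex with Wdr48, was the other deubiquitinase gene to pass. It was counted at 4 and 1 UMIs under PBS against 9, 20 and 17 under Sema3G, or 2.20 and 0.54 CPM against 5.00, 9.03 and 7.84 CPM. The groups did not overlap, but both PBS values were near or under the counting limit. This gave a log2 fold change of 1.87 (SE 0.47, limma adjusted p = 0.0479), and the ratio of summed, depth-scaled UMIs was 5.49 (2.19 to 17.7). It did not pass without PBS replicate 2 (limma adjusted p = 0.144), without Sema3G replicate 2 (0.283) or without Sema3G replicate 3 (0.242). It passed in 6 of 13 alternatives that gave it a value, over which the adjusted p ranged from 0.0146 to 0.283.

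The 250 bases before the start site are shown for the deubiquitinase genes Usp12 and Usp25 and the Ube2 genes Ube2n and Ube2j1, whose groups did not overlap, so that both classes can be seen at their promoters. The sequences are RefSeq's for GRCm38.p6, read 5′ to 3′ on the gene's strand. Capitals mark matches on either strand to GGGCGG (GC box), CCGGAA (ETS), CACGTG (E-box), TGACGTCA (CRE) or GGGANTTCC (kB), and neighboring GC boxes can share bases.
Usp12, chr5:146794957-146795206, minus strand: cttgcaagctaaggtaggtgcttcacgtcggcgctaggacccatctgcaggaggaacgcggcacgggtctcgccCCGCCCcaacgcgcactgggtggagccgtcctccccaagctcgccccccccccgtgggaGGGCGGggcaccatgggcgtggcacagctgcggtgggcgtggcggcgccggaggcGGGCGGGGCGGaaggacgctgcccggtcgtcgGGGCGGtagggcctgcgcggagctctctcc
Usp25, chr16:77013819-77014068, plus strand: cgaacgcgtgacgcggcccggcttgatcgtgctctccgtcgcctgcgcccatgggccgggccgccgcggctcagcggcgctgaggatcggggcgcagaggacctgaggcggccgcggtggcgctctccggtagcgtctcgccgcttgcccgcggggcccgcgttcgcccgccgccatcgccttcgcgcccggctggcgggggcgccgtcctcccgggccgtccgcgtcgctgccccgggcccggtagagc
Ube2n, chr10:95514912-95515161, plus strand: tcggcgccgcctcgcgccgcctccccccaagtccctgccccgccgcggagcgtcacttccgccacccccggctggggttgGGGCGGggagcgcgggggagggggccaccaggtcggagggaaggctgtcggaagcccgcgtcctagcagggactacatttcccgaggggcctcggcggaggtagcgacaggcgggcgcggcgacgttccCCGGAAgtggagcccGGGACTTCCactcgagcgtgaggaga
Ube2j1, chr4:33031130-33031379, plus strand: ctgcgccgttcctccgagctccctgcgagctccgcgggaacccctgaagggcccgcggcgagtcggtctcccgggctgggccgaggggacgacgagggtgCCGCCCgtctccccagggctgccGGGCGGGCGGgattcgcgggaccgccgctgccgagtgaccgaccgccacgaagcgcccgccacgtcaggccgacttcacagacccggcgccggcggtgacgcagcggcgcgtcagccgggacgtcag
The Usp12 window held 5 GC boxes and that of Ube2j1 held 3. The Ube2n window held 1 GC box, 1 ETS match and 1 kB match. The window of Usp25 held none of these motifs, which says only that these letters are not in it.

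Windows were matched by symbol for 37 of the 48 tested deubiquitinase genes and 21 of the 28 tested Ube2 genes. A GC box was in 75.7% of the deubiquitinase windows and 71.4% of the Ube2 windows, against 60.7% of 7843 tested genes and 32.9% of all 27018 windows of this length. The kB match was in 0 of 37 deubiquitinase windows and in 9.52% of the Ube2 windows (2 genes), against 1.98% of tested genes and 1.42% of all windows. ETS matches were in 29.7% and 23.8%, against 24.6% of tested genes and 12.2% of all windows. E-boxes were in 16.2% and 9.52%, against 8.91% and 6.05%. The CRE was in 0 deubiquitinase windows and in 4.76% of Ube2 windows (1 gene), against 2.92% and 1.62%. Both classes were rich in GC, with a median of 65.6% and 68.4%, against 60% in tested genes and 52% in all windows. Matches describe letters and not binding.

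Among deubiquitinases with more counts, several lay higher with Sema3G in every library without passing the test. Usp25, which acts on TRAF proteins in innate immune signaling, was at 45.6 and 32.7 CPM with PBS and 67.3, 69.5 and 70.5 CPM with Sema3G. The Sema3G libraries were close together and lay well above both PBS libraries. The log2 fold change was 0.82 (SE 0.21, limma adjusted p = 0.0541), and it passed in 7 of 15 alternatives, among them TMM scaling and DESeq2. Usp1, which together with Wdr48 removes ubiquitin from FANCD2 and PCNA in DNA repair, was at 19.8 and 14.5 CPM with PBS and 37.8, 27.1 and 30.9 CPM with Sema3G. The groups were apart, with a wider spread among the Sema3G libraries than for Usp25. Its log2 fold change was 0.86 (SE 0.26, limma adjusted p = 0.0925), and it passed in 5 of 15 alternatives.

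Usp15, a deubiquitinase of TGF-beta signaling, was at 25.3 and 30.5 CPM with PBS and 43.4, 42.4 and 45.2 CPM with Sema3G. Every Sema3G library was clear of both PBS libraries. Its log2 fold change was 0.63 (SE 0.22, limma adjusted p = 0.133), and it passed with TMM scaling and with CPM recomputed on listed genes less Rn45s. Usp53, found at tight junctions, was low, counted at 1 and 2 UMIs under PBS against 3, 6 and 17 under Sema3G. Its mean was 0.81 CPM with PBS and 4.07 CPM with Sema3G, so it passed the filter of 1 CPM only through the group where it is high, and its place among the 13 genes lying above is no support for them. Most of its Sema3G counts came from replicate 3, and the log2 fold change was 1.31 (SE 0.56, limma adjusted p = 0.195), or 0.81 without that library. The ratio of its summed, depth-scaled UMIs was 5.17 with a counting interval of 1.58 to 26.7.

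**Figure D2:**
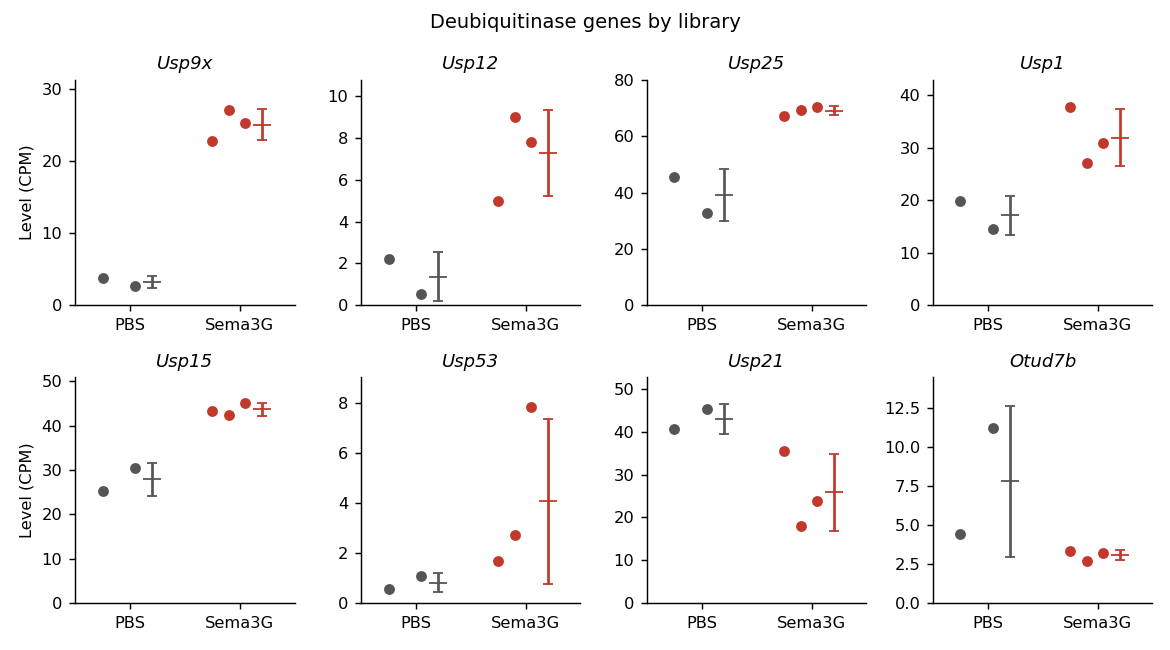
Level in CPM (y axis, from 0) of 8 deubiquitinase genes in each PBS (gray) and Sema3G (red) library, with mean ± SD beside the points (n = 2 and 3). Usp9x, Usp12, Usp25, Usp1, Usp15 and Usp53 have all Sema3G libraries above both PBS libraries, Usp21 and Otud7b have all below, and of these 8 genes Usp9x and Usp12 passed the test.

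Usp34, Usp8 and Usp47, named after their values were seen, had the same order of groups. Usp34, which acts in Wnt signaling, had 140 and 175 UMIs with PBS and 204, 267 and 256 UMIs with Sema3G, a log2 fold change of 0.46. Usp8, which acts on receptors sorted at endosomes, had 176 and 124 UMIs with PBS and 193, 262 and 227 UMIs with Sema3G, a log2 fold change of 0.45. Usp47, which acts on DNA polymerase beta in base excision repair, had 56 and 48 UMIs with PBS and 70, 90 and 96 UMIs with Sema3G, a log2 fold change of 0.54. In CPM, every Sema3G library of these genes lay above both PBS libraries, with limma adjusted p-values of 0.179, 0.214 and 0.187. Usp16, which removes ubiquitin from histone H2A, was at 24.2 and 28.4 CPM with PBS and 28.9, 35.2 and 42.4 CPM with Sema3G (log2 fold change 0.41, limma adjusted p = 0.337). Its Sema3G replicate 1 was barely above PBS. Exons of Usp16 overlap Cct8, and those of Usp34 overlap Ahsa2, on the other strand. The sources used here do not give the strand setting of the counting, so reads from such pairs may not be told apart. Usp45 overlaps Tstd3, Ube2c overlaps Tnnc2 and Ube2s overlaps Rpl28 in the same way.

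Other deubiquitinases lay lower with Sema3G, and 0 of them passed the limma test over all 5 libraries. Usp21, which acts on histone H2A and on RIPK1, was at 40.7 and 45.5 CPM with PBS and 35.6, 18.1 and 24.0 CPM with Sema3G. Replicate 1 of Sema3G was the one nearest to PBS. The log2 fold change was −0.76 (SE 0.27, limma adjusted p = 0.135), and without Sema3G replicate 1 the adjusted p was 0.0257. Otud7b, which cuts ubiquitin chains and acts on TRAF3, was at 4.40 and 11.2 CPM with PBS and 3.34, 2.71 and 3.23 CPM with Sema3G. Its PBS replicates lay far apart. With that spread the log2 fold change was −0.99 (SE 0.45, limma adjusted p = 0.216), and it was −1.58 without PBS replicate 1 and −0.40 without PBS replicate 2. In CPM, Usp11, Otud3 and Usp20 also lay lower in every Sema3G library. Their log2 fold changes were −0.59, −0.54 and −0.48, and the limma adjusted p-values 0.493, 0.549 and 0.454. Usp11 and Otud3 rest on few counts, as each PBS library held only 5 UMIs of either gene. Usp11 was at the counting limit of 3 UMIs in each Sema3G library. Otud3 was counted at 3, 2 and 5 in Sema3G replicates 1, 2 and 3. Its replicate 3 thus equaled PBS in counts and lay lower only after scaling to library size. With 1 library left out Otud3 ranged from −0.72 to −0.32, the latter without Sema3G replicate 2, and Usp20 from −0.70 to −0.25, the latter without PBS replicate 1.

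Most other deubiquitinases overlapped between groups or lay near the median of all genes. Usp7, which acts on p53 and its ligase MDM2, was at 91.2 and 128 CPM with PBS and 113, 104 and 106 CPM with Sema3G. The PBS libraries bracketed the Sema3G libraries, and the log2 fold change was −0.0030 with a 95% interval from −0.42 to 0.41. Usp48 was at 143 and 105 CPM with PBS and 122, 122 and 106 CPM with Sema3G, a log2 fold change of −0.072 (−0.48 to 0.34). Usp14, which trims ubiquitin at the proteasome, had a log2 fold change of −0.14 (−0.64 to 0.35), and its exons overlap Thoc1 on the other strand. Usp22 of the SAGA complex, Usp4 and Otud5, an Otud enzyme known for acting on TRAF3, lay lower in all Sema3G libraries, at −0.25, −0.28 and −0.27, all close to the all-gene median of −0.22, and at 0.036, 0.0077 and 0.019 with CPM recomputed on listed genes less Rn45s. Otud1, Otud4 and Usp10 overlapped between groups, at 0.0024, −0.18 and −0.72, and so did Otud6b at 0.67. Leaving out 1 library moved Usp10 to between −1.08 and −0.36 and Otud6b to between 0.31 and 1.02. Of the 45 tested genes followed through the alternatives, 29 moved by over 1.5 times when some library was left out, and neither Usp9x nor Usp12 was among them. The remaining tested deubiquitinase genes ranged from −0.95 (Usp27x, 4 and 9 UMIs with PBS, 1, 6 and 2 with Sema3G) to 0.39 (Usp45). Among them, Usp45, Usp24 and Usp42 lay higher in every Sema3G library, at 0.39, 0.27 and 0.18 (limma adjusted p = 0.476, 0.556 and 0.745). Usp19, Usp2 and Usp33 lay lower in every one, at −0.38, −0.47 and −0.11 (limma adjusted p = 0.282, 0.513 and 0.850). None of these intervals shows that a gene is equal in both groups.

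Most Ube2 genes described here lay lower with Sema3G, as 16 of the 28 tested did without overlap (57.1%, against 26.5% of all tested genes, and 11 and 5 with TMM scaling and with CPM on listed genes less Rn45s), and none passed the test with all 5 libraries and no block. Ube2n, which with a Ube2v protein builds the chains that activate the kinase TAK1, was counted at 22 and 28 UMIs under PBS against 12, 18 and 9 under Sema3G. Every Sema3G library lay below both PBS libraries, in CPM too. The log2 fold change was −1.02 (SE 0.37, limma adjusted p = 0.138), the lowest among the Ube2 genes. Its partner Ube2v2 had 7 and 7 UMIs with PBS and 4, 5 and 4 UMIs with Sema3G (log2 fold change −0.63, limma adjusted p = 0.435). Ube2v1, the other partner, was at 0 in every library, and its exons overlap the gene model Gm20431 on the same strand. How reads shared by both models were counted was not tested.

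Ube2d2a, which serves many E3 ligases, was at 76.4 and 64.8 CPM with PBS and 49.5, 47.8 and 45.2 CPM with Sema3G. All of its Sema3G libraries were below PBS and close together. On the log2 scale the change was −0.56 (SE 0.20, limma adjusted p = 0.141). Ube2l3, the E2 of the linear chain complex and of Parkin, was at 178 and 167 CPM with PBS and 138, 123 and 107 CPM with Sema3G. The groups were clearly apart at a high count. This was a log2 fold change of −0.49 (SE 0.19, limma adjusted p = 0.153), and its exons overlap Ydjc on the other strand. Ube2e1 was at 31.3 and 29.4 CPM with PBS and 20.6, 20.8 and 19.8 CPM with Sema3G (−0.55, limma adjusted p = 0.208), and its exons overlap Nkiras1 on the other strand. Ube2d3 and Ube2r2, which serves cullin ligases, lay lower in all Sema3G libraries at −0.40 each, and Ube2h, the E2 of the CTLH ligase, at −0.48. Ube2d3 was at −0.18 without PBS replicate 1 and Ube2r2 at −0.23 without Sema3G replicate 3. With CPM on listed genes less Rn45s, Ube2d3 and Ube2r2 were at −0.11 each and Ube2h at −0.20. Under that scaling Ube2d2a was at −0.27, Ube2l3 at −0.20 and Ube2e1 at −0.28, beside an all-gene median of 0.042. Exons of Ube2d3 overlap 4930539J05Rik on the other strand. Ube2e2 had 4 and 3 UMIs with PBS and 1, 3 and 0 UMIs with Sema3G. It passed the filter only through PBS, the group where it is high, so its place among the 16 Ube2 genes lying below is no support for them. Ube2d1, which also serves many E3 ligases, overlapped at −0.27.

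Ube2j1, an E2 of endoplasmic reticulum-associated degradation, was at 89.6 and 99.6 CPM with PBS and 77.8, 62.7 and 58.5 CPM with Sema3G. Its Sema3G replicate 1 was the nearest to PBS. The log2 fold change was −0.51 (SE 0.20, limma adjusted p = 0.165), and without Sema3G replicate 1 it passed at 0.0498. Ube2g2, which acts in the same process, was at 55.5 and 38.0 CPM with PBS and 32.8, 28.9 and 31.8 CPM with Sema3G, a log2 fold change of −0.55 (SE 0.23, limma adjusted p = 0.195). Its PBS replicates differed more than its Sema3G replicates, and the change was −0.28 without PBS replicate 1. With CPM on listed genes less Rn45s, Ube2j1 was at −0.23 and Ube2g2 at −0.27.

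**Figure D3:**
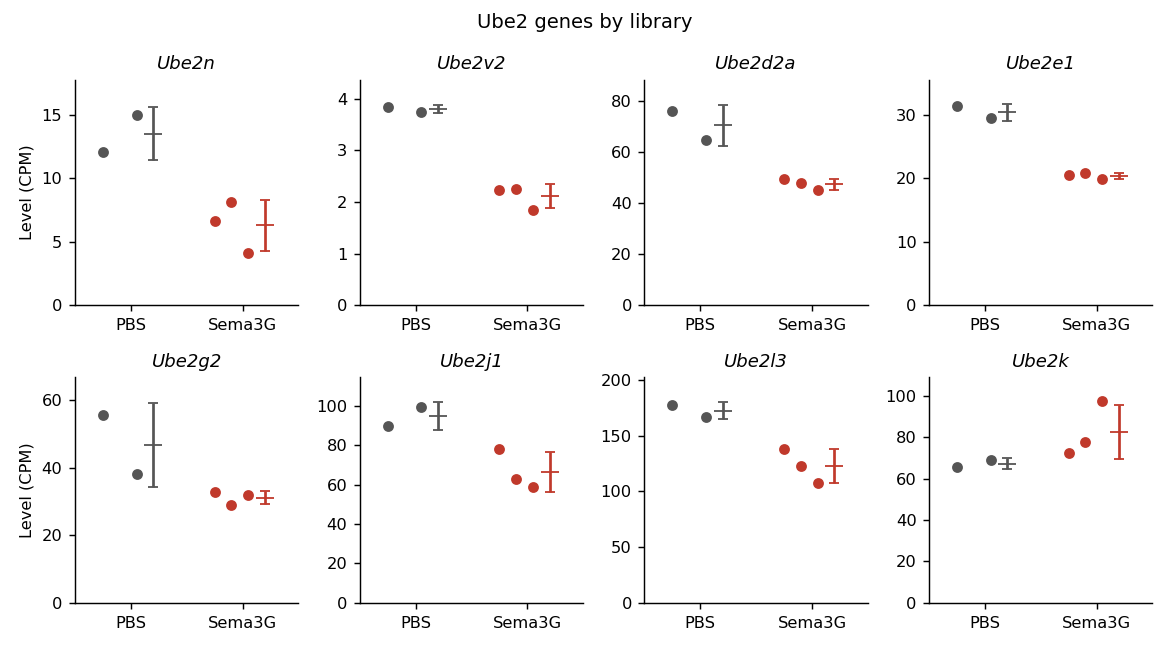
Level in CPM (y axis, from 0) of 8 Ube2 genes in each PBS (gray) and Sema3G (red) library, with mean ± SD beside the points (n = 2 and 3). For 7 of them every Sema3G library lies below both PBS libraries, and for Ube2k every one lies above; 0 of these genes passed the test.

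The carriers of ubiquitin-like proteins did not share one order. Ube2m, a NEDD8 carrier, was at 22.5 and 31.6 CPM with PBS and 12.2, 14.4 and 23.0 CPM with Sema3G. Sema3G replicate 3 reached into the PBS range. For this gene the log2 fold change was −0.70 (SE 0.30, limma adjusted p = 0.195), or −0.47 without PBS replicate 2. Ube2f, the other NEDD8 carrier, lay lower in all Sema3G libraries at −0.41 (limma adjusted p = 0.296). Ube2l6, which carries the interferon-induced protein ISG15, was low and overlapped, with 8 and 4 UMIs with PBS and 6, 2 and 6 UMIs with Sema3G. Ube2z, which works with Uba6, lay lower at −0.43 (limma adjusted p = 0.294), or −0.084 without PBS replicate 1.

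In CPM as deposited, only Ube2k and Ube2q2 had all Sema3G libraries above both PBS libraries. Ube2k, which builds chains that lead to the proteasome, was at 65.4 and 69.1 CPM with PBS and 72.3, 77.6 and 97.3 CPM with Sema3G, a log2 fold change of 0.28 (SE 0.20, limma adjusted p = 0.427) that was 0.15 without Sema3G replicate 3. Ube2q2 was at 6.59 and 11.8 CPM with PBS and 16.1, 16.7 and 14.8 CPM with Sema3G, a log2 fold change of 0.77 (SE 0.32, limma adjusted p = 0.186) that was 0.40 without PBS replicate 1 and 1.15 without PBS replicate 2. Neither passed the test. Ube2b and Ube2a, the E2 enzymes of histone H2B, overlapped at 0.040 and −0.086, and Ube2o at 0.29. Ube2j2, Ube2w, Ube2e3, Ube2q1 and Ube2g1 ranged from −0.45 (Ube2j2) to 0.037 (Ube2g1). Cell cycle members were barely detected. Ube2c, of the anaphase-promoting complex, had 3 and 1 UMIs with PBS and 5, 2 and 0 UMIs with Sema3G, Ube2s had 0 and 1 against 2, 2 and 0, and Ube2t had 1 and 1 against 0, 3 and 2. At this depth no difference was detectable in these genes.

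The balance between the classes was also described library by library. Summed over all rows, deubiquitinase genes held 1204 and 1179 CPM with PBS and 1309, 1266 and 1241 CPM with Sema3G. Ube2 genes held 1577 and 1419 CPM with PBS and 1276, 1170 and 1104 CPM with Sema3G. Deubiquitinase UMIs per 100 Ube2 UMIs, a ratio that no scaling of a library alters, were 76.4 and 83.1 with PBS and 102.6, 108.2 and 112.4 with Sema3G. Each Sema3G library lay above both PBS libraries, with means of 79.7 ± 4.75 (SD, n = 2) and 107.7 ± 4.91 (SD, n = 3). Without Usp9x and Usp12 the ratio was 76.0 and 82.9 against 100.4, 105.1 and 109.4. Without the 13 deubiquitinase genes that lay higher in every Sema3G library it was 53.0 and 59.7 against 62.0, 62.1 and 63.1, a smaller gap that leaves out genes by their values. The Rn45s share ordered the 5 libraries in the same way as the ratio, and its part in the ratio was not tested. In bulk RNA, fewer cells of one kind and less RNA per cell cannot be told apart.

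**Figure D4:**
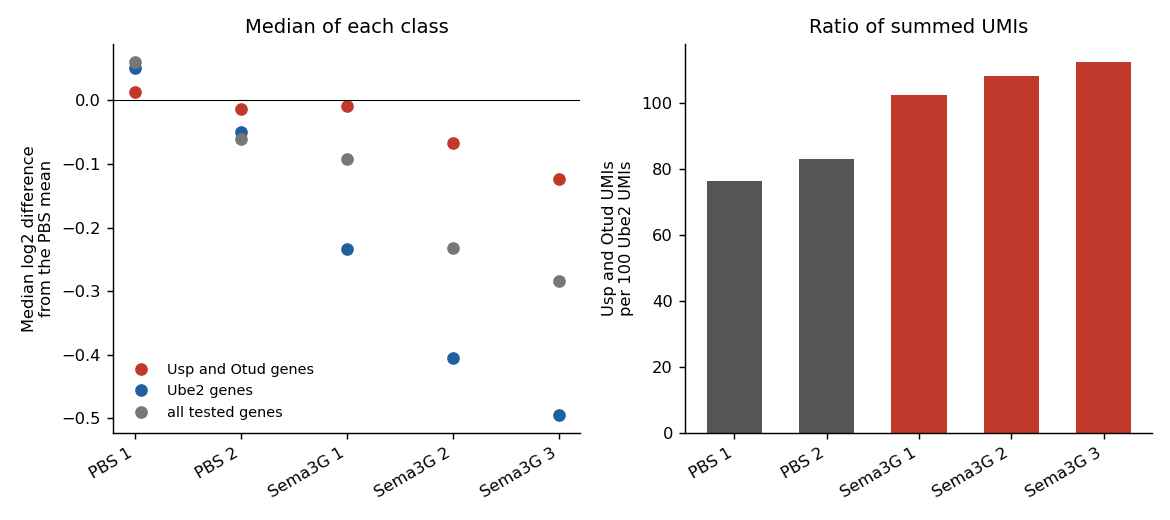
Left, median log2 difference from the PBS mean on log2(CPM + 1) for tested Usp and Otud genes (red), Ube2 genes (blue) and all tested genes (gray) in each library. Right, UMIs of Usp and Otud genes per 100 UMIs of Ube2 genes in each library, bars from 0, PBS in gray and Sema3G in red. The Ube2 median falls below that of all genes in every Sema3G library (−0.23, −0.40 and −0.49), and the bars stand at 76.4 and 83.1 against 102.6, 108.2 and 112.4.

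The median log2 difference from the PBS mean was −0.0082, −0.067 and −0.12 for deubiquitinase genes in Sema3G replicates 1, 2 and 3, and −0.23, −0.40 and −0.49 for Ube2 genes. Over all tested genes it was −0.092, −0.23 and −0.28, between the classes in each library. Between the PBS libraries, replicate 2 minus replicate 1, the medians were −0.027 for deubiquitinase, −0.10 for Ube2 and −0.12 for all genes, so the classes lay closer to each other there than in any Sema3G library.

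The classes differed in transcript length, and fold changes followed length over all genes. The longest annotated transcript had a median of 4741.5 nt for tested deubiquitinase genes, 3469.5 nt for Ube2 genes and 3390 nt for all tested genes with a value (96.3%). Over all genes the median log2 fold change was −0.37, −0.28, −0.20 and 0.023 from the shortest to the longest quartile of transcript length. The share of all genes called higher was 0.288%, 0.700%, 1.07% and 4.24% in the same order. In the longest quartile (4805 nt and more) it was 0.11 for 21 deubiquitinase genes and −0.40 for 5 Ube2 genes. In the next quartile (3391 to 4804 nt) it was −0.25 for 21 deubiquitinase genes and −0.44 for 10 Ube2 genes, against −0.20 for all. The 13 deubiquitinase genes that lay higher in every Sema3G library had a median of 5816 nt, and the 11 that lay lower had 4183 nt. In the shortest quartile the median log2 fold change was −0.54 for 1 deubiquitinase gene and −0.39 for 8 Ube2 genes, against −0.37 for all. In the quartile after it the values were −0.33 for 5 deubiquitinase genes and −0.36 for 5 Ube2 genes, against −0.28. By gene span, from the shortest to the longest quartile, the Ube2 medians were −0.38, −0.32, −0.52 and −0.37, those of deubiquitinase genes −0.76, −0.25, −0.27 and 0.11, and those of all genes −0.37, −0.31, −0.18 and 0.0083. The Ube2 medians were near those of all genes in the shortest quartile of either measure and farthest below them in the longest. The deubiquitinase medians lay above those of all genes in the longest quartile of either measure and in the second by span, and below them in the other quartiles. The part of length in the fold changes was not tested.

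**Figure D5:**
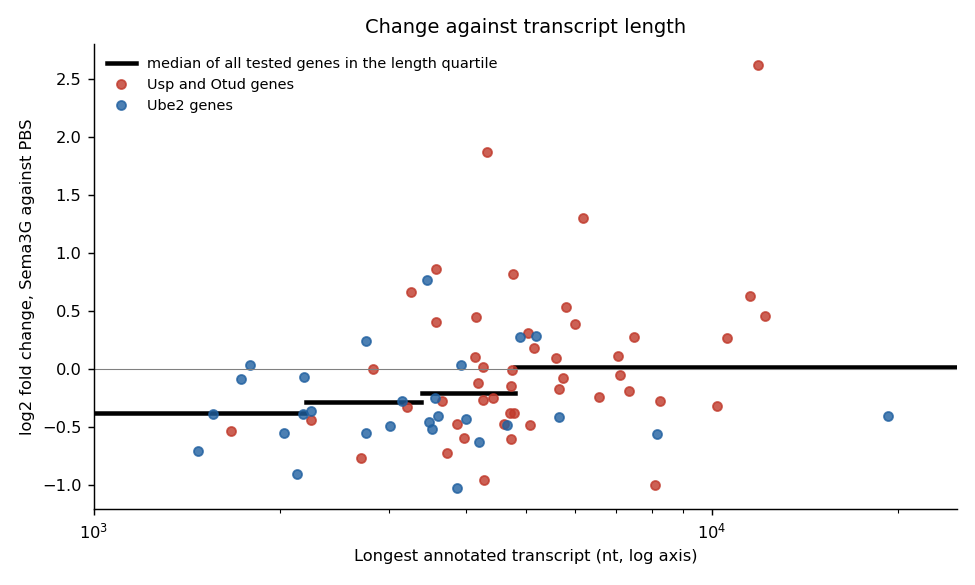
Log2 fold change (y axis, Sema3G against PBS on log2(CPM + 1)) against the longest annotated transcript (x axis, nt, log scale) for tested Usp and Otud genes (red) and Ube2 genes (blue). Black lines give the median of all tested genes in each length quartile, rising from −0.37 to 0.023, and red points are found mostly in the longer quartiles.

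Other genes of the ubiquitin system were looked up in lists by role. All 9 E1 and E1-like genes had a log2 fold change below 0, as did 67.5% of all tested genes, with a median of −0.39, and 0 passed the limma test. Against the all-gene median of −0.22, 7 lay lower and 2 higher, Uba6 at −0.033 and Nae1 at −0.074. Uba1, the main E1, was at 314 and 361 CPM with PBS and 289, 201 and 186 CPM with Sema3G (−0.61, limma adjusted p = 0.124). Uba3, the E1 of NEDD8, was at 18.1 and 12.8 CPM with PBS and 3.34, 6.77 and 6.91 CPM with Sema3G (−1.34, limma adjusted p = 0.0803). These groups did not overlap. Among 11 tested ubiquitin and ubiquitin-like precursor genes the median was −0.51, with 10 below 0 and 0 passing, against the same 67.5% below 0 over all tested genes. Against the all-gene median, 9 of them lay lower and 2 higher. No rescaled medians were taken for these lists.

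Among 37 tested deubiquitinases of other families and related proteases, 1 was called higher (2.70%, near the 1.59% of all tested genes) and 0 lower, with a median of −0.21, equal within 0.011 to all genes. The one was Zranb1 (Trabid), a deubiquitinase with an OTU domain, with 6 and 15 UMIs with PBS and 31, 35 and 34 UMIs with Sema3G (log2 fold change 1.47, SE 0.36, limma adjusted p = 0.0440). Tnfaip3 (A20) and Cyld, brakes on NF-kB signaling, overlapped between groups at −0.19 and 0.0074. Among 37 tested E3 ligase genes of Toll-like receptor and NF-kB signaling, 1 was likewise called higher (2.70%, against 1.59%) and 0 lower (against 0.218%), with a median of −0.095. The one was Cbl, a ligase that acts on activated receptor kinases such as the M-CSF receptor, with 36 and 23 UMIs with PBS and 101, 205 and 186 UMIs with Sema3G (log2 fold change 2.22, SE 0.26, limma adjusted p = 0.000185). Its Sema3G libraries were all far above PBS. Traf2 lay lower, at 16.5 and 13.4 CPM with PBS and 7.78, 5.87 and 3.69 CPM with Sema3G (−1.27, limma adjusted p = 0.0868).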

How the data were processed

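RNA of 5 libraries (2 PBS, 3 Sema3G) was sequenced by the authors from 3′ ends with a QuantSeq kit and UMIs, mapped to mm10 and counted with Strand NGS; the submitters' processing notes name edgeR 3.12. The deposited table holds CPM, which the authors scaled to the UMI total of each library, and p-values, q-values and ranks of their own comparison, which were not used. All CPM values were whole multiples of 1 UMI within 0.01, so UMI counts were recovered. The 10088 genes averaging 1 CPM or more were tested on log2(CPM + 1) by limma 3.58.1 with its trend option in R 4.3.3, at a Benjamini-Hochberg adjusted p below 0.05. Alternatives changed the pseudocount, filter, scaling and replicate block, left out each library, or used edgeR 4.0.16 or DESeq2 1.42.0 on recovered counts. Code was tested on simulated data. Date-like symbols (27 rows) were kept as rows. Members and lists were chosen with earlier results of these data known. Named genes were those past the threshold, the 5 largest and 5 smallest changes without overlap per class, and members listed by role. Coordinates and lengths are from GENCODE M21 on GRCm38, promoters from RefSeq. A few genes are counted in their lists but not reported here by name.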

Additional observations from a re-analysis of the deposited data

How the results depend on the processing

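Of 45 tested named genes, 30 had a value under all 15 alternatives and the other 15 under 12 to 14. Under those that gave a value, 33 genes kept their direction relative to the all-gene median, and 26 kept their side of the threshold too. Deubiquitinase genes passing numbered 2 as reported, 1 with a pseudocount of 0.1 or 5, with no filter, with a mean of at least 5 CPM or with edgeR's quasi-likelihood test by library size, 5 with TMM scaling, 8 with CPM recomputed on listed genes less Rn45s (Usp34, Usp8 and Usp47 among them) and 4 with the quasi-likelihood test and TMM, while all genes called higher rose from 160 to 325, 496 and 301 under the last 3. Leaving out 1 library gave 1 to 4, with 1 without PBS replicate 2, Sema3G replicate 2 or Sema3G replicate 3 and 4 without Sema3G replicate 1. For the Ube2 genes, 0 passed as reported and 0 to 1 when a library was left out, the 1 being Ube2j1 without Sema3G replicate 1. The numbers of all genes called were 160 higher and 22 lower as reported, 26 and 0 without Sema3G replicate 2, 28 and 0 without Sema3G replicate 3, and 303 and 553 without Sema3G replicate 1. The deubiquitinase median of −0.093 was −0.0030 with the 5 CPM filter, 0.11 with TMM, 0.19 with CPM on listed genes less Rn45s, 0.11 with the quasi-likelihood test and TMM and 0.11 with DESeq2, and −0.13 to −0.079 with a library left out. The Ube2 median of −0.40 was −0.20, −0.12, −0.22 and −0.22 under the same scalings and tests. The difference between the medians, 0.31, was 0.20 to 0.38 with a library left out and above 0 under all 15 alternatives. Counts of genes with all Sema3G libraries lower moved from 11 to 2 for deubiquitinases under either scaling and from 16 to 5 for Ube2 genes with CPM on listed genes less Rn45s, where those higher went from 2 to 4. These rescaled counts were chosen after seeing the data. Of the changes relative to the all-gene median, Ube2c turned to −0.43 with a pseudocount of 0.1 and −0.027 with CPM on listed genes less Rn45s, and Otud4 to −0.0058 with no filter. With a library left out, the ranges crossing 0 were −0.11 to 0.54 for Usp7, −0.0054 to 0.15 for Usp14, −0.12 to 0.000079 for Usp4, −0.12 to 0.018 for Otud5, −0.11 to 0.057 for Usp22, −0.23 to 0.29 for Otud4, −0.47 to 0.048 for Ube2z, −0.31 to 1.32 for Ube2o, −0.48 to 0.18 for Ube2l6, −0.16 to 0.60 for Ube2c, −0.25 to 0.50 for Ube2a and −0.28 to 0.17 for Ube2d1. With the replicate block, 5 deubiquitinase genes (4 higher and 1 lower) and 1 Ube2 gene (Ube2m, lower) passed, beside 298 of all genes higher and 275 lower, and Usp4, Usp22 and Ube2d1 turned to 1.6e-05, 0.057 and 0.17. The numbers pair no samples by the labels, and Sema3G replicate 3 has no partner and drops out of the block. Deviations from the group means correlated at 0.17 and 0.11 over only 2 same-numbered pairs, and at −0.17 to 0.097 over the other pairs. With 2 PBS libraries these deviations mirror each other, so the correlations cannot tell whether the numbers pair samples. The cause of these moves was not tested. Depth limits low genes: for Usp53, counting error alone allows a ratio from 1.58 to 26.7.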
